A study of Mus musculus with 60 samples.

Results

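Aminoacyl-tRNA synthetases join each amino acid to its tRNA, and their transcripts were followed here in 5 organs of mice that lack Ftsj1. The genes were taken by symbol from the poly-A tables: 19 genes for cytosolic synthetases or their subunits, 3 for scaffold proteins of the multi-synthetase complex and 16 for mitochondrial synthetases. All 38 were found in every one of the 5 tables, out of 55290 gene names, with the methionine enzyme written as Mars1. Poly-A RNA was sequenced from whole brain, spleen, heart, liver and kidney in 3 Ftsj1-deficient mice (labelled Ftsj1_DF) and 3 wildtype mice (WT). All were untreated males, 4 months old, fed ad libitum, and 4 of them were brothers, as were the other 2. The labels do not say how Ftsj1 was disrupted or on which strain. The same 6 mice gave all organs. Total RNA libraries of the same organs were used only for long non-coding RNAs next to the synthetase genes. The question of the comparison is whether synthetase transcripts differ between the genotypes in any organ.

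A charged tRNA is made when the synthetase activates the amino acid with ATP and transfers it to the tRNA's 3′ end. In the cytosol several synthetases sit together in a complex held by scaffold proteins, while others work on their own. Mitochondria use a separate set, encoded in the nucleus and imported, to charge the tRNAs of the mitochondrial genome. FTSJ1 methylates ribose in the anticodon loop of a subset of cytosolic tRNAs, among them those for phenylalanine, tryptophan and leucine. Several cytosolic synthetase genes are also targets of ATF4, the transcription factor of the integrated stress response, which is switched on by uncharged tRNA among other signals.

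The deposited tables hold the authors' comparison for each organ and no value per library. Levels are therefore means over the 6 libraries of an organ, errors are the standard errors of the authors' fit, and the spread and overlap of single mice cannot be shown. Log2 fold changes are Ftsj1-deficient against wildtype throughout. Ftsj1 itself was lower in every organ, by log2 fold changes between -3.51 in liver and -2.70 in brain in the authors' deposited tables. Depth per library is unknown, but its inequality can be read from the lowest levels: the largest size factor exceeded the smallest 2.14 times in spleen, 4.80 times in liver, 6.46 times in brain, 11.4 times in heart and 18.0 times in kidney. Of 20 organ markers, 19 were highest in the organ they mark, and Ms4a1, a B cell gene, was listed at 0 everywhere. In whole organs fewer cells of a type and less RNA per cell cannot be told apart.

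No synthetase or scaffold transcript passed the test in any organ. With the authors' DESeq2 adjusted p under 0.05 as the threshold, 0 of 38 genes were called in each of the 5 organs. Over all genes tested, the called share was 0.0607% in brain, 0.0741% in spleen, 0.541% in heart, 2.29% in liver and 0.987% in kidney. An unadjusted p under 0.05 was found for 0 genes in brain and kidney, 1 in heart, 2 in liver and 1 in spleen, which is 4 of 190 gene and organ pairs or 2.11%. The share of all genes with such a p was 2.34% in brain, 4.70% in spleen, 5.71% in heart, 6.63% in liver and 3.99% in kidney. Among genes at a mean level of 500 or more, where every synthetase lies, it was 2.62% in brain, 5.85% in spleen, 7.79% in heart, 11.9% in liver and 6.29% in kidney.

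The fold changes lay close to 0, and the errors were small enough to bound them. The median over the 38 genes was -0.01 in brain, 0.07 in spleen, 0.05 in heart, -0.05 in liver and 0.02 in kidney. Over all genes with a mean of 10 normalised counts or higher the median lay between -0.0019 in heart and 0.019 in spleen. Genes with a fold change above 0 numbered 16 in brain, 26 in spleen, 24 in heart, 14 in liver and 22 in kidney, against 49.7% to 53.1% of all genes. Among genes with a mean level from 500 upwards, the share above 0 was 58.6% in spleen, where their median was 0.04, and 49.6% to 52.7% in the other organs. The median standard error of the 38 was 0.082 in brain, 0.094 in kidney, 0.139 in liver, 0.148 in heart and 0.154 in spleen. The 95% interval of the log2 fold change lay within 1 of 0 for 189 of 190 pairs, Lars2 in heart being the exception. It lay within 0.5 of 0 for 37 genes in brain, 29 in spleen, 32 in heart, 36 in liver and 37 in kidney.

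What size would have been called can be read from the called genes of the same table. The smallest absolute Wald statistic of a called gene was 4.22 in brain, 4.17 in spleen, 3.64 in heart, 3.25 in liver and 3.49 in kidney. At the median error of the 38 genes, that corresponds to a log2 fold change of 0.35 in brain, 0.64 in spleen, 0.54 in heart, 0.45 in liver and 0.33 in kidney. The largest absolute Wald statistic of any synthetase or scaffold gene was 1.41 in brain, 2.25 in spleen, 1.97 in heart, 2.18 in liver and 1.55 in kidney. At the smallest error among the 38 genes, the smallest statistic of a called gene corresponds to 0.242 in brain, 0.486 in spleen and 0.394 in heart. In liver and kidney that statistic corresponds to 0.367 and 0.275. The size that would have been called thus differed from gene to gene.

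**Figure D1:**
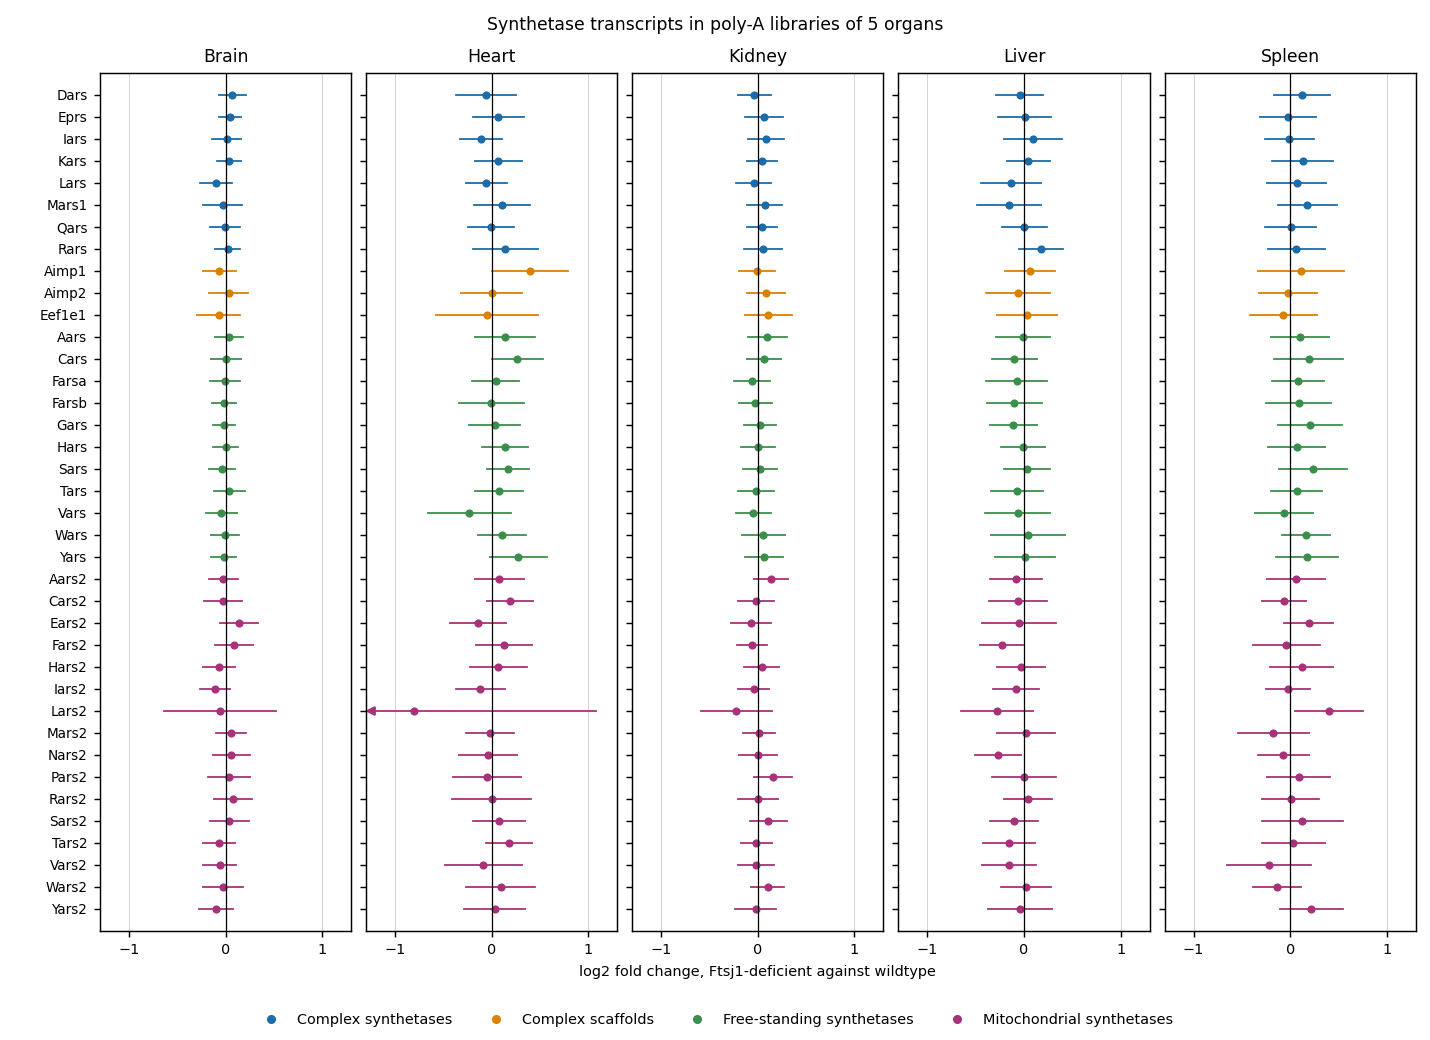
Log2 fold change (Ftsj1-deficient against wildtype, x axis) of the 38 genes (rows, coloured by group) in the poly-A libraries of 5 organs. Points are the deposited values, lines their 95% intervals from the deposited standard errors, and the arrowhead marks the Lars2 interval in heart, which runs on to -2.68; apart from Lars2 in heart, every interval lies within 1 of 0.

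The 8 synthetases of the multi-synthetase complex lay near 0 in all organs. Their median log2 fold change was 0.01 in brain, 0.07 in spleen, 0.03 in heart, 0.0050 in liver and 0.05 in kidney, and none passed. Eprs, which charges both glutamate and proline, had log2 fold changes of 0.05 ± 0.060 (SE) in brain, -0.02 ± 0.15 in spleen, 0.07 ± 0.13 in heart, 0.01 ± 0.14 in liver and 0.06 ± 0.10 in kidney in the authors' deposited tables. Qars, the glutamine enzyme, spanned only -0.01 to 0.04 over the organs in those tables. Rars, which charges arginine, and Kars, which charges lysine, were the only genes of the 38 with a value above 0 in all 5 organs. Their deposited values ran from 0.02 to 0.17 for Rars and from 0.03 to 0.13 for Kars, each with 0 inside its 95% interval. Lars, the cytosolic leucine enzyme, was at -0.10 ± 0.084 in brain, 0.07 ± 0.16 in spleen, -0.06 ± 0.11 in heart, -0.13 ± 0.16 in liver and -0.04 ± 0.093 in kidney in the authors' deposited tables.

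The 3 scaffold genes gave the only heart value with an unadjusted p under 0.05. Aimp1 encodes a scaffold protein whose cleaved form is known as a secreted cytokine. Its mean level in heart was 4475 normalised counts, and its log2 fold change there was 0.39 ± 0.20 with p = 0.0485 and adjusted p = 0.590 in the authors' deposited table. In the other organs Aimp1 lay between -0.06 in brain and 0.11 in spleen in the deposited tables. Aimp2 was between -0.06 and 0.09, and Eef1e1, the smallest scaffold protein, between -0.07 and 0.11. Eef1e1 had the largest error of any gene but Lars2 in brain, heart and kidney, at 0.115, 0.270 and 0.125.

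The 11 free-standing cytosolic synthetases had medians of -0.01 in brain, 0.10 in spleen, 0.11 in heart, -0.07 in liver and 0.02 in kidney. Of them 3 were above 0 in brain, 10 in spleen, 9 in heart, 3 in liver and 7 in kidney, and none passed. Heart held their highest values: Yars, the tyrosine enzyme, at 0.27 ± 0.15 with an adjusted p of 0.661, and Cars, the cysteine enzyme, at 0.26 ± 0.13 with an adjusted p of 0.597, both from DESeq2 in the authors' deposited table. Sars, which charges serine, was highest in spleen at 0.24 ± 0.18 in the authors' deposited table. Vars, the valine enzyme, was below 0 in all 5 organs, from -0.23 ± 0.22 in heart to -0.04 ± 0.083 in brain. Vars2 and Iars2, its mitochondrial counterpart and the mitochondrial isoleucine enzyme, were the other genes below 0 in every organ. Over all 38 genes, 3 were above 0 in no organ, 4 in 1, 8 in 2, 12 in 3, 9 in 4 and 2 in all 5.

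The enzymes that charge the best known FTSJ1 substrates showed no change that passed the test. Farsa and Farsb encode the subunits of the phenylalanine enzyme, Wars the tryptophan enzyme and Lars the leucine enzyme. In brain all 4 lay below 0 in the deposited table, at -0.01 for Farsa, -0.02 for Farsb, -0.01 for Wars and -0.10 for Lars, with standard errors between 0.064 and 0.084. In spleen all 4 lay above 0, at 0.08 for Farsa, 0.09 for Farsb, 0.16 for Wars and 0.07 for Lars, with errors between 0.125 and 0.170. In heart Farsa was at 0.04 ± 0.13, Farsb at -0.0035 ± 0.17 and Wars at 0.11 ± 0.13 in the authors' deposited table. In kidney Farsa was at -0.06 ± 0.095, Farsb at -0.03 ± 0.086 and Wars at 0.06 ± 0.11 in the authors' deposited table. In liver Farsa was at -0.08 ± 0.16, Farsb at -0.10 ± 0.15 and Wars at 0.04 ± 0.20 in the authors' deposited table. The median of the 4 was -0.01 in brain, 0.08 in spleen, 0.02 in heart, -0.09 in liver and -0.04 in kidney.

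The 16 mitochondrial synthetases held the other 3 pairs with an unadjusted p under 0.05, for 2 genes in liver and 1 in spleen. The share of all genes with such a p was 6.63% in liver and 4.70% in spleen. At a mean level of 500 or more it was 11.9% and 5.85%. Nars2, the mitochondrial asparagine enzyme, was at -0.27 ± 0.12 in liver, with p = 0.0292 and adjusted p = 0.350 in the authors' deposited table. Fars2, the mitochondrial phenylalanine enzyme, was at -0.23 ± 0.11 there, with p = 0.0404 and adjusted p = 0.414 in the authors' deposited table. These correspond to 83.1% and 85.2% of the wildtype level. In the other organs Nars2 lay between -0.07 in spleen and 0.06 in brain, and Fars2 between -0.06 in kidney and 0.13 in heart, in the deposited tables. In liver 4 of the 16 lay above 0 and the median was -0.07, against -0.03 in brain, 0.02 in heart, -0.01 in kidney and 0.02 in spleen. Of 9 genes for transcription of the mitochondrial genome and its regulators, such as Tfam and Ppargc1a, none passed in any organ. Their median was 0.10 in liver, where their median standard error was 0.15. It was 0.02 in brain, 0.07 in heart, 0.03 in kidney and -0.03 in spleen.

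Lars2, the mitochondrial leucine enzyme, stood apart by its error. Its log2 fold change was -0.06 ± 0.30 in brain, 0.40 ± 0.18 in spleen, -0.80 ± 0.96 in heart, -0.28 ± 0.19 in liver and -0.22 ± 0.19 in kidney in the authors' deposited tables. The spleen value had p = 0.0247 and adjusted p = 0.693 in the authors' deposited table. No other synthetase spanned as wide a range, and the heart value was the only one of the 190 beyond 0.5 from 0. Genes within 2-fold of its level had a median standard error of 0.076 in brain and 0.152 in heart. Only 2 of 2855 such genes in brain, 2 of 282 in heart and 12 of 1596 in kidney had a larger error than Lars2, against 138 of 1754 in liver and 775 of 2253 in spleen. The error of such a fit grows with the spread among libraries, whose single values were not analysed here.

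**Figure D2:**
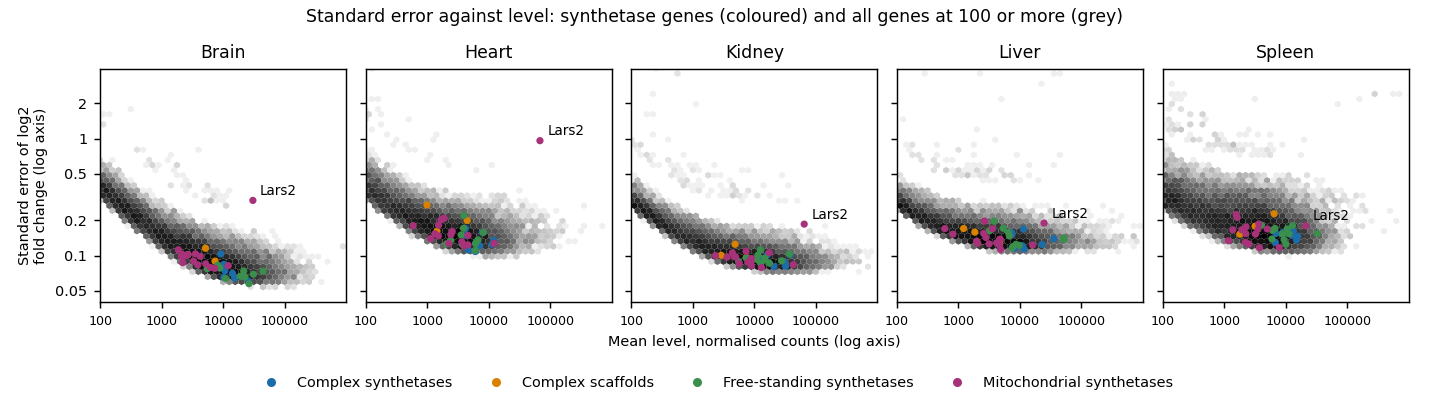
Standard error of the log2 fold change (y, log axis) against mean level in normalised counts (x, log axis) in the poly-A table of each organ. Grey cells are all genes at a mean level of 100 or more, darker where genes are denser, and coloured points are the 38 genes; Lars2 lies above the band in brain, heart and kidney, and near it in liver and spleen.

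The same tables list Rn18s-rs5, a feature for 18S ribosomal RNA that poly-A selection should leave mostly behind. Its values were set beside those of Lars2. Rn18s-rs5 was at -0.10 ± 0.34 in brain, 0.43 ± 0.18 in spleen, 0.16 ± 0.88 in heart, -0.24 ± 0.15 in liver and -0.38 ± 0.33 in kidney in the authors' deposited tables. It took 0.378% of the summed level in brain, 0.480% in spleen, 0.759% in heart, 0.174% in liver and 0.279% in kidney. Both features had their largest error in heart and their highest fold change in spleen, while in heart their fold changes had opposite signs. mt-Rnr2, the large mitochondrial ribosomal RNA, had smaller errors in brain and heart, with -0.06 ± 0.086 and -0.20 ± 0.18 in the authors' deposited tables, and in kidney, with 0.04 ± 0.10. In spleen and liver its errors were larger than those of Lars2 and Rn18s-rs5, with -0.03 ± 0.30 and 0.45 ± 0.20 in the authors' deposited tables. The liver value, opposite in sign to both, had p = 0.0228 and adjusted p = 0.309 in the authors' deposited table. AY036118, a further feature read beside Lars2, was at -0.26 ± 0.22 in brain, 0.09 ± 0.49 in spleen and -0.10 ± 0.36 in heart. It was at 0.38 ± 0.28 in liver and 0.04 ± 0.34 in kidney in the authors' deposited tables. In spleen the globin genes Hba-a1 and Hbb-bs were above 0 too, at 0.77 ± 0.27 and 0.78 ± 0.28. No stretch of 20 bases is shared between the GENCODE M21 transcripts of Lars2 and those of Rn18s-rs5 (there named Gm42418), AY036118, mt-Rnr1 or mt-Rnr2 on either strand. Sequence outside these transcripts was not searched, so this cannot decide whether reads of ribosomal RNA were counted for Lars2. The part of ribosomal RNA in the Lars2 values was not tested.

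**Figure D3:**
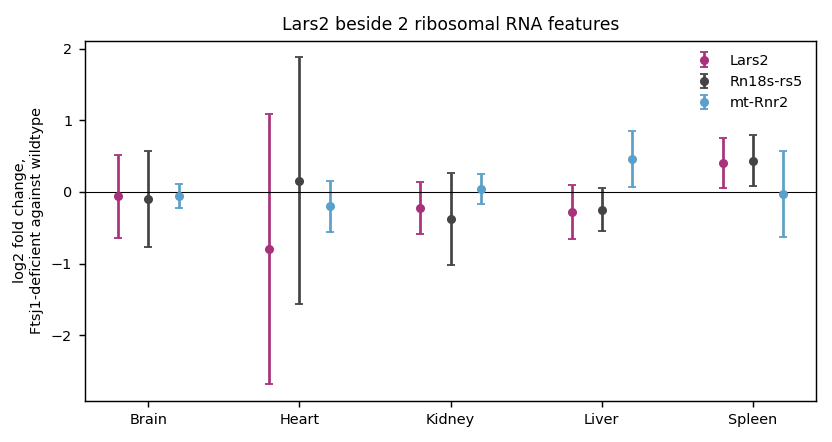
Log2 fold change (y axis, Ftsj1-deficient against wildtype) of Lars2, Rn18s-rs5 and mt-Rnr2 in the poly-A libraries of each organ (x axis), with 95% intervals from the deposited standard errors. Lars2 and Rn18s-rs5 both have their widest interval in heart, where they lie at -0.80 and 0.16. In spleen they lie at 0.40 and 0.43 while mt-Rnr2 lies at -0.03.

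Whether a gene's fold change differed between organs was tested with Cochran's Q on the 5 deposited values and their errors. No synthetase or scaffold gene passed at an adjusted p under 0.05, and none had an unadjusted p under 0.05, against 1.22% and 8.30% of the 17391 genes tested. The smallest p among the 38 was that of Lars2, at 0.0549 with an adjusted p of 0.626 by Benjamini-Hochberg. The organs came from the same mice, so the 5 values are not independent and this p is approximate.

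Levels were set side by side across organs as a description, with no test. The tables were normalised separately, so levels are given in ppm, that is parts of 1000000 of the organ's summed mean level, as means over both genotypes with no spread over mice. The ratio of the highest to the lowest organ had a median of 2.59 over the 38 genes, was under 2 for 12 of them and over 4 for 6. Spleen was the highest organ for 20 genes, brain for 7, kidney for 6, liver for 4 and heart for 1. Liver was the lowest for 18 and heart for 11. Transcripts of the mitochondrial genome took 29.3% of the summed level in heart and 3.29% to 13.3% elsewhere. With them left out, the highest organ was the same for 30 of 38 genes, spleen was highest for 15 and heart for 7, and liver was lowest for 23 and heart for 3. The counts for heart thus depended on this scaling.

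Vars had the widest range. It stood at 257 ppm in spleen, 36.2 in brain, 31.5 in kidney, 27.9 in heart and 22.4 in liver, a ratio of 11.5 between the extremes. Tars, the threonine enzyme, was at 216 ppm in liver, 74.0 in spleen, 43.8 in kidney, 36.1 in brain and 26.3 in heart. Liver was thus 2.92 times the next organ for Tars, and spleen 7.09 times the next organ for Vars. Mars2, the mitochondrial methionine enzyme, was lowest in liver at 3.39 ppm, against 28.7 in spleen, 27.5 in brain, 16.8 in kidney and 15.9 in heart. Wars was highest in brain at 95.9 and lowest in liver at 15.9 ppm. Lars2 was at 483 ppm in heart, 192 in kidney, 167 in spleen, 135 in brain and 103 in liver, and Pars2, the mitochondrial proline enzyme, ran from 2.50 in liver to 10.8 in spleen.

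Other genes differed less between organs. Aars, the alanine enzyme, stood at 216 ppm in liver and 199 in brain, above kidney at 110, spleen at 88.9 and heart at 57.8. Yars was highest in brain, at 100.4 ppm against 47.7 in spleen, the next organ. Rars2, the mitochondrial arginine enzyme, was highest in kidney at 51.6 ppm, 2.04 times spleen. Iars2 was highest in kidney too, at 127 ppm against 53.6 in brain. Nars2 was the only mitochondrial synthetase highest in liver, at 19.4 ppm. The flattest gene was Yars2, the mitochondrial tyrosine enzyme, with a ratio of 1.48 between its highest and lowest organ.

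Between genes, levels were compared per kilobase of the transcript with the longest coding sequence in GENCODE M21. Lars2 was the highest of the 38 in heart at 124 ppm per kilobase, Tars in liver at 53.9 and Vars in spleen at 63.5. Pars2 was the lowest in heart at 1.37, Mars2 in kidney at 1.49 and in liver at 0.300, and Nars2 in spleen at 2.43. These orders were the same with the length of all exons together. The highest gene in brain was Sars by the first length and Gars, the glycine enzyme, by the second, and in kidney Lars2 and Dars, the aspartate enzyme. All 38 together took 1544 ppm of the summed level in liver, 1622 in heart, 1711 in kidney, 1865 in brain and 2226 in spleen. Without transcripts of the mitochondrial genome they took 1698 ppm in liver, 1973 in kidney, 1981 in brain, 2293 in heart and 2301 in spleen. The place of heart in this order thus depended on the scaling. With Lars2 left out, the heart sum was 1140 ppm of the full summed level.

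**Figure D4:**
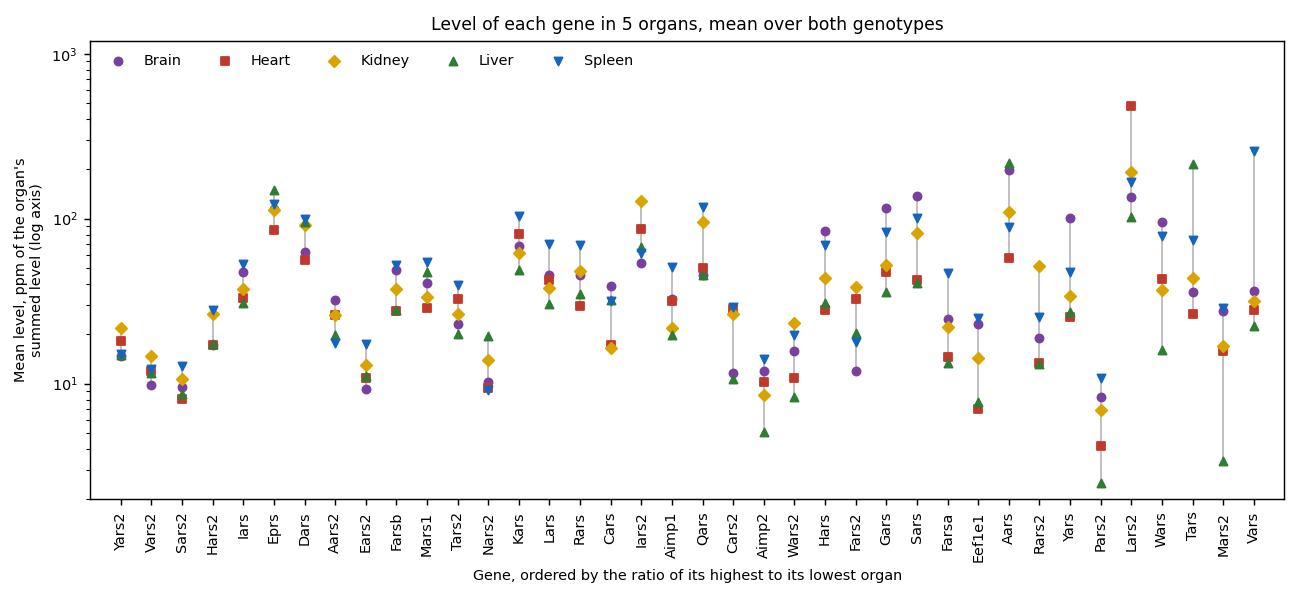
Mean level of each gene (x axis, ordered by the ratio of its highest to its lowest organ) in ppm of the organ's summed level (y, log axis), as the mean over the 6 libraries of an organ and both genotypes. Yars2 at the left spans a ratio of 1.48 and Vars at the right one of 11.5, with Vars set apart in spleen, Tars in liver and Lars2 in heart.

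Genes that work beside the synthetases were read from lists. Of 9 genes for tRNA export, CCA addition and delivery to the ribosome, 1 rose: Tufm, the mitochondrial elongation factor that carries charged tRNA, at 0.60 ± 0.15 in heart with an adjusted p of 0.0170 in the authors' deposited table. Of all genes tested in heart, 0.210% were called higher. Tufm was at -0.21 ± 0.14 in brain, 0.03 ± 0.12 in kidney, -0.13 ± 0.17 in liver and -0.02 ± 0.23 in spleen in the authors' deposited tables. None of 7 proofreading and peptidyl-tRNA hydrolase genes and none of 8 genes of indirect charging passed in any organ. Aarsd1, Gatb and Pstk, which belong to these lists, are listed at 0 in every organ. None of 6 genes for eIF2 alpha kinases and phosphatase subunits passed either.

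Synthetase genes known as ATF4 targets were set beside the other targets of that factor. The 11 cytosolic synthetases of this kind had medians of -0.01 in brain, 0.16 in spleen, 0.11 in heart, -0.01 in liver and 0.06 in kidney, while for the 8 not usually counted as targets they were -0.0029 in brain, 0.07 in spleen, 0.02 in heart, -0.03 in liver and -0.01 in kidney. None of either group passed. Of 26 integrated stress response genes, 2 rose in brain, where 0.0140% of all genes were called higher: Nupr1, a stress-induced chromatin protein, at 0.89 ± 0.11, and Atf5, a transcription factor, at 0.64 ± 0.14. Atf5 also rose in kidney at 0.35 ± 0.092, where 0.339% of all genes were called higher, and no gene of this list was called in heart, liver or spleen. The deposited DESeq2 adjusted p was 6.66e-12 for Nupr1 and 0.00592 for Atf5 in brain, and 0.0219 for Atf5 in kidney. In brain, where Nupr1 rose, the ATF4-target synthetases lay between -0.10 and 0.05. Atf4 itself was at -0.0021 ± 0.057 in brain and -0.04 ± 0.12 in kidney in the authors' deposited tables, and at 0.28 ± 0.14 in heart, with p = 0.0406 and adjusted p = 0.570. Asns, the asparagine synthetase gene and a standard ATF4 target, was at -0.04 ± 0.063 in brain and 0.02 ± 0.12 in kidney in those tables. An unadjusted p under 0.05 was found for 3 of the 26 genes in brain, 5 in spleen, 6 in heart, 7 in liver and 3 in kidney. Over all genes the share was 2.34% in brain, 4.70% in spleen, 5.71% in heart, 6.63% in liver and 3.99% in kidney. At a level of 500 or more it was 2.62% in brain, 5.85% in spleen, 7.79% in heart, 11.9% in liver and 6.29% in kidney. Ddit3, a transcription factor gene of the same response, was among the 3 in brain. It was at 0.21 ± 0.087 there, with p = 0.0166 and adjusted p = 0.9999 in the authors' deposited table. In liver Nupr1 was at 3.32 ± 1.16 with an adjusted p of 0.111 and Atf5 at 0.42 ± 0.14 with an adjusted p of 0.0829, both from DESeq2 in the authors' deposited table. The list's median was 0.10 in brain, 0.21 in spleen, -0.03 in heart, 0.15 in liver and -0.01 in kidney.

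Promoter stretches are shown for 3 synthetase genes that did not pass the test and a gene that rose. Each holds, before its start, a match to the letters TGATGNAA, where N is any base. ATF4 with a partner binds sites that resemble TGATGNAA. These letters were searched on both strands in the 250 bases before the start of each gene in RefSeq's GRCm38.p6 promoter windows. They were found for 1056 of 27025 genes with a window, or 3.91%. Of the 38 genes 30 had a window, and Aars, Gars and Tars, or 10%, held the letters there. So did 7 of 23 stress response genes with a window, or 30.4%. The windows run on for 50 bases after the start. Over the full 300 bases Iars and Yars held the letters too, which made 5 of 30, or 16.7%, against 4.51% of all genes. Trib3 was then added among the stress response genes, for 8 of 23, or 34.8%. In all 4 stretches the match lies on the strand opposite to the gene, so that its reverse complement stands in capitals, and each is written along the gene's own strand. The stretches are chr8:111033704-111033763 on the plus strand for Aars, chr6:55037941-55038000 on the plus strand for Gars, chr15:11399659-11399718 on the minus strand for Tars and chr7:126625547-126625606 on the minus strand for Nupr1.
Aars: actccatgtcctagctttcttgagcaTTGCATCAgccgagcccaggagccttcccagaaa
Gars: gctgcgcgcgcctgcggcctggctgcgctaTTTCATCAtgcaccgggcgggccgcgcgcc
Tars: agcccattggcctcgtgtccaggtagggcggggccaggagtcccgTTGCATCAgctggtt
Nupr1: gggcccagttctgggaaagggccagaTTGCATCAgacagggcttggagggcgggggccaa
The match begins 112 bases before the start of Aars, 30 before that of Gars, 15 before that of Tars and 110 before that of Nupr1. In brain Aars was at 0.04 ± 0.073, Gars at -0.02 ± 0.057 and Tars at 0.04 ± 0.082 in the authors' deposited table, against 0.89 ± 0.11 for Nupr1. Nupr1 was the only called gene among the 7 stress response genes with the letters before the start. The others were Atf3, Chac1, Asns, Slc7a11, Pycr1 and Vldlr, called in no organ. In brain they lay between -0.34 for Atf3 and 0.18 for Slc7a11. Atf5, which also rose in brain, was not among the 7. A match of letters is a description of the sequence and does not show a bound site.

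Interferon-stimulated genes were read as a further list. Of 20, 3 rose in heart (Irf7, Oas1a and Isg15) and 3 in liver (Ifit1, Rsad2 and Ifit2), where 0.210% and 0.887% of all genes were called higher, and none in brain, kidney or spleen. With p adjusted over all genes with a p, of these only Oas1a was called in heart, and Ifit1 and Rsad2 in liver. With p adjusted over the 5 organs together, only Ifit1 of the 3 was called in liver. An unadjusted p under 0.05 was found for 9 of the 20 in brain, 4 in spleen, 12 in heart, 5 in liver and 8 in kidney. Over all genes the share was 2.34% in brain, 4.70% in spleen, 5.71% in heart, 6.63% in liver and 3.99% in kidney. At a level of 500 or more it was 2.62% in brain, 5.85% in spleen, 7.79% in heart, 11.9% in liver and 6.29% in kidney. The median of the 20 was 0.45 in brain, 0.26 in spleen, 0.35 in heart, 0.27 in liver and 0.24 in kidney. Wars, the synthetase gene known to respond to interferon gamma, was between -0.01 in brain and 0.16 in spleen in the authors' deposited tables and passed in none.

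**Figure D5:**
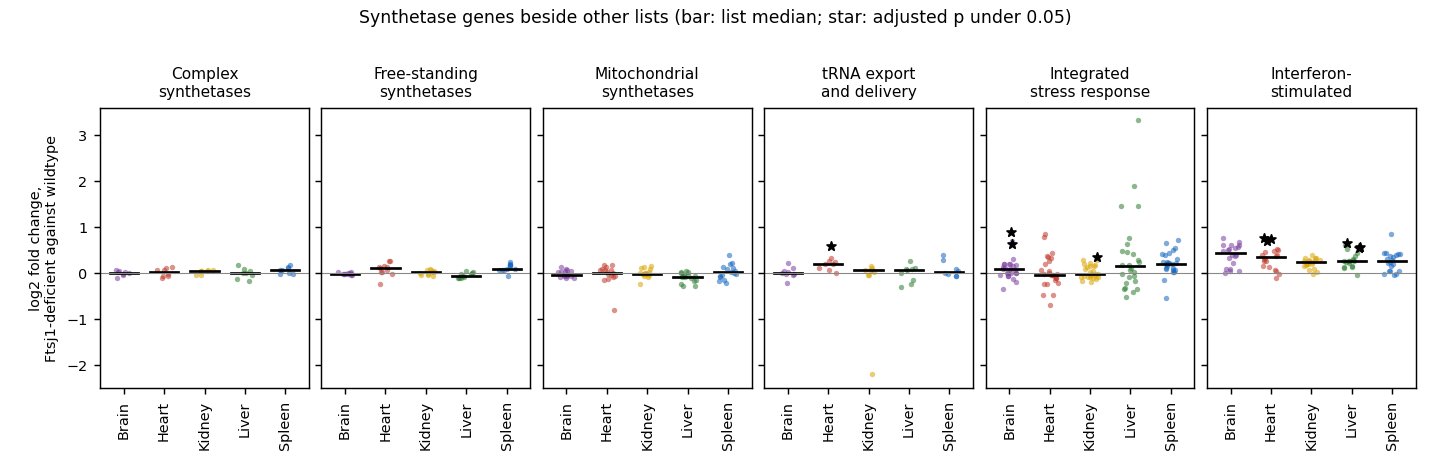
Log2 fold change (y axis, Ftsj1-deficient against wildtype) of single genes at a mean level of 10 or more in 6 lists (panels) and 5 organs (x axis), with black bars for list medians and stars for genes with an adjusted p under 0.05. The 3 synthetase panels hold no star, and their medians lie between -0.07 and 0.11.

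Some of these genes overlap a neighbour. The libraries were stranded, but the sources used here do not say whether the authors counted by strand. Without strand, reads from exon bases shared by 2 genes on opposite strands could not be told apart. In GENCODE M21 15 of the 38 genes share exon bases with another gene. The shared part is 29.4% of the exon bases for Aimp2, with Eif2ak1 on the opposite strand, 24.2% for Iars2, mostly with Rab3gap2 on the opposite strand, 15.1% for Aars, mostly with Exosc6 on the same strand, and 10.7% for Fars2, mostly with Nrn1 on the opposite strand. Exosc6 is listed at 0 in every organ, and none of Eif2ak1, Rab3gap2 and Nrn1 passed the test in any. Nrn1 had 63929 normalised counts in liver and 28327 in brain, against 4849 and 2699 for Fars2, and lay below Fars2 in the other organs. Eif2ak1 lay above Aimp2 in every organ, with 15897 against 2674 in brain, and Rab3gap2 above Iars2 in brain only. The part of such neighbours in the values of these genes was not tested. Hars and Hars2, the cytosolic and mitochondrial histidine enzymes, share 195 exon bases, and Mars1 shares 68 with the stress gene Ddit3. Of the 50-base windows of Iars 7.15% also occur in other genes, most often in Gm4849, so some of its reads may be split.

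Long non-coding RNAs beside these genes were looked up in the tables of the total RNA libraries. There were 12 of them next to or overlapping 7 of the 38 genes, and none passed in any organ. Some pairs, such as Gm15579 in heart, liver and kidney, had no adjusted p and so could not pass. Of long non-coding RNAs with an adjusted p, 0.0108% were called in brain, 0% in spleen, 0.681% in heart, 1.02% in liver and 0.410% in kidney. An unadjusted p under 0.05 was found for 2 of 60 pairs, against 3.54% of all long non-coding RNAs in brain, 2.70% in spleen, 7.66% in heart, 3.28% in liver and 2.99% in kidney. Gm43024, within an intron of Wars2, was at -0.49 ± 0.19 in kidney with p = 0.00858 and adjusted p = 0.604 in the authors' deposited table. 9630028B13Rik, antisense to Eprs, was at -1.46 ± 0.63 in heart with p = 0.0199 and adjusted p = 0.339 in the authors' deposited table, with a mean of only 34.2 normalised counts.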

How the data were processed

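Per the labels' protocols, RNA came from frozen, milled whole organs by a phenol method and went into stranded poly-A and total RNA libraries. The submitters' processing notes name GRCm39, featureCounts, Subread 2.0.3 and DESeq2. The sources used here do not name the aligner, annotation, strand setting or the treatment of multi-mapping reads. All libraries carry the same batch label.

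The deposited mean signal is the authors' DESeq2 mean of normalised counts over an organ's 6 libraries, per the file headers. Deposited with it are the log2 fold change, not shrunk, and its standard error. The authors' Wald score equalled their ratio within 7.11e-14. The deposited p-value is unadjusted, and the authors' adjusted p-value follows Benjamini-Hochberg after independent filtering. Rows with no gene name (at most 0.000198% of the level) were left out.

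With no value per library, no count model was fitted. A gene was called at the authors' adjusted p under 0.05. Intervals are 95% intervals from the deposited errors. Cochran's Q ran over genes at a mean level of 10 or more in all 5 organs. Replicates are separate mice. Size factor ratios came from the levels of genes with 1 read in 1 library. Lengths and overlaps come from GENCODE M21 (GRCm38), another build than the authors', so no gene coordinates are given; promoters are RefSeq's. Named were genes with an unadjusted p under 0.05, Farsa, Farsb, Wars and Lars, the highest and lowest levels and called list genes; others were chosen after their values were seen. The genes and lists were chosen with earlier results of these data known. Python 3.11.15, pandas 2.3.3, numpy 2.4.6, scipy 1.17.1 and matplotlib 3.10.9 were used.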

Additional observations from a re-analysis of the deposited data

How the results depend on the processing

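The count of 0 synthetase and scaffold genes called in each organ was the same with p adjusted over all genes with a p, over genes at a mean level of 10 or more or over the 5 organs together, at an adjusted p under 0.1, and with fold changes centred on the organ's median. With an unadjusted p under 0.05 it became 1 in heart, 2 in liver and 1 in spleen. The median of the 38 genes changed sign in no organ under another minimum level, centring or without the 3 scaffold genes. Of 260 recomputed list medians 4 changed sign, and the largest shift was 0.022. The between-organ test called no synthetase gene after leaving out each organ in turn or centring. Of the other genes, Irf7 and Isg15 in heart and Ifit2 in liver lost their call with p adjusted over all genes with a p, Rsad2 and Ifit2 in liver with p adjusted over the 5 organs together, and Ifit2 also after centring (adjusted p 0.0501, 0.0569, 0.0751, 0.0637, 0.162 and 0.0510); the cause was not tested. Levels without mitochondrial transcripts, the background at 500 or more and the exon length were chosen after seeing the data.

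No paired analysis was possible because the tables hold no values per library. For the same reason other scalings of the libraries, leaving out each mouse, litter as a block and no filter on low counts were not run, and 1 deviating library cannot be seen. Errors were largest in spleen and heart, so those organs bound the synthetase changes least.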
